A study of Homo sapiens and Mus musculus with 33 samples.

Results

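The mitochondrially encoded subunits of respiratory complex I are MT-ND1, MT-ND2, MT-ND3, MT-ND4, MT-ND4L, MT-ND5 and MT-ND6. They were taken by symbol from the gene lists of the single-cell matrices and make up 7 of 36601 human genes, with the mouse genes mt-Nd1 to mt-Nd6 and mt-Nd4l making up 7 of 32285. All 7 were found in every matrix of their species. The series holds 33 libraries, of which 16 are single-cell libraries and 17 are bulk SLAM-seq libraries. SLAM-seq is read here at RNA 3' ends: cells build 4-thiouridine (4sU) into RNA made during labelling, and iodoacetamide (IAA) alkylates it so that such RNA is read with C in place of T. NOTE-seq applies the same conversion to formaldehyde-fixed cells before droplet sequencing.

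Complex I takes electrons from NADH, passes them to ubiquinone and pumps protons across the inner mitochondrial membrane. Its membrane arm is built around the 7 hydrophobic subunits encoded by mitochondrial DNA, while the core subunits of the peripheral arm, the supernumerary subunits and the assembly factors are made from nuclear genes and imported. MT-ND2, MT-ND4 and MT-ND5 are the antiporter-like subunits of the membrane arm, MT-ND1 lies next to the ubiquinone site, and MT-ND3, MT-ND4L and MT-ND6 are small subunits at the joint of the arms. The genes are transcribed as long polycistronic RNAs and cut at the tRNAs that punctuate them. All members except MT-ND6 are read from the heavy strand promoter, and MT-ND6 is the one messenger RNA of the other strand.

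The human genes lie on the mitochondrial chromosome (RefSeq, GRCh38.p14), each as a single uninterrupted coding gene. MT-ND1 spans MT:3307-4262, MT-ND2 spans MT:4470-5511, MT-ND3 spans MT:10059-10404, MT-ND4L spans MT:10470-10766, MT-ND4 spans MT:10760-12137, MT-ND5 spans MT:12337-14148 and MT-ND6 spans MT:14149-14673. MT-ND4L overlaps the start of MT-ND4, and MT-ND6 begins at the base after MT-ND5 and runs toward it on the other strand. Whether counting used strand is not given in the sources used here, so reads of MT-ND6 and of RNA from the opposite strand there cannot be told apart. How reads in the overlap of MT-ND4L and MT-ND4 were assigned is likewise not given, so the split between them is uncertain.

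The single-cell groups were 1 library each unless stated. eHAP cells, a human haploid line, were profiled by standard 10x without 4sU, by NOTE-seq with 4sU, and after cold methanol fixation with 4sU and IAA. Jurkat cells (a line from human T cell leukaemia), all with 4sU, gave 2 unstimulated libraries from clone E6-1 and 2 libraries stimulated with PMA and ionomycin whose label names clone E6-2, so clone and stimulation cannot be told apart. One library of each kind is numbered replicate 1 (here set 1) and the other carries no number (set 2). Cells labelled K562 (an erythroleukaemia line) received 4sU and were processed with or without IAA. A library mixed Jurkat cells with mouse NIH3T3 fibroblasts and had neither 4sU nor conversion. Naive T cells of mouse lymph nodes, whose age and strain the labels do not give, were taken with 4sU at 0, 2, 4, 6 and 8 h of stimulation by anti-CD3 and anti-CD28. Another naive T library had no 4sU, and its label does not give the state of stimulation. The bulk SLAM-seq libraries were Jurkat E6-1 controls and cells given 50 nM CPT or 1 µM ETO (3 libraries each) and naive T cells with a control or 250 µM, 500 µM or 1 mM 4sU (2 each). All their titles name 4sU labelling, those of the controls included. By these titles no Jurkat SLAM-seq library was unlabelled, so none gives a background for conversions. The labels do not tie replicates to cultures or mice, so p-values reflect only how far these libraries differ, and that spread may be technical.

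Values per gene are given as CPM, the UMIs (unique molecule counts) of a gene per 1000000 UMIs of the library. Median depth was 7126 to 18022 UMIs per cell in the human libraries, 3583 to 3670 in the mix and 338 to 659 in the naive T libraries. No 2 libraries shared more than 6 cell barcodes. T cell markers summed to 2131 to 3193 CPM in the Jurkat libraries and to 3723 to 4819 in the naive T libraries, and to at most 2.06 in eHAP. The libraries labelled K562 went against their label: 8 of 8 erythroid markers were at 0 without IAA and their sum was 1.78 with IAA, while LYZ, a myeloid enzyme, was at 97.2 and 134 CPM, and PAX5, a B cell factor, at 29.4 and 32.8. In the mixed library 239 cells were called human and 291 mouse of 586, and human members made up 0.0113% of UMIs in mouse cells against 1.54% in human cells, which gives the level of stray RNA there.

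The 7 genes together took 1.18% of all UMIs in standard 10x eHAP cells, 0.967% in NOTE-seq eHAP cells and 0.425% in methanol-fixed eHAP cells. In Jurkat cells they took 0.728% (set 1) and 0.562% (set 2) without stimulation and 0.574% and 0.619% with it. The libraries labelled K562 had 0.401% (49 cells) and 0.480% (1511 cells). In the mixed library they took 1.58% of the human UMIs of human cells and 1.82% of the mouse UMIs of mouse cells, above every other library here. Naive T cells had 0.474% without 4sU and 0.186% to 0.230% in the 5 libraries with 4sU. Per cell, the lower and upper quartiles were 0.890% and 1.38% in standard 10x eHAP cells, and 0.521% and 0.834% in set 1 unstimulated Jurkat cells.

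**Figure D1:**
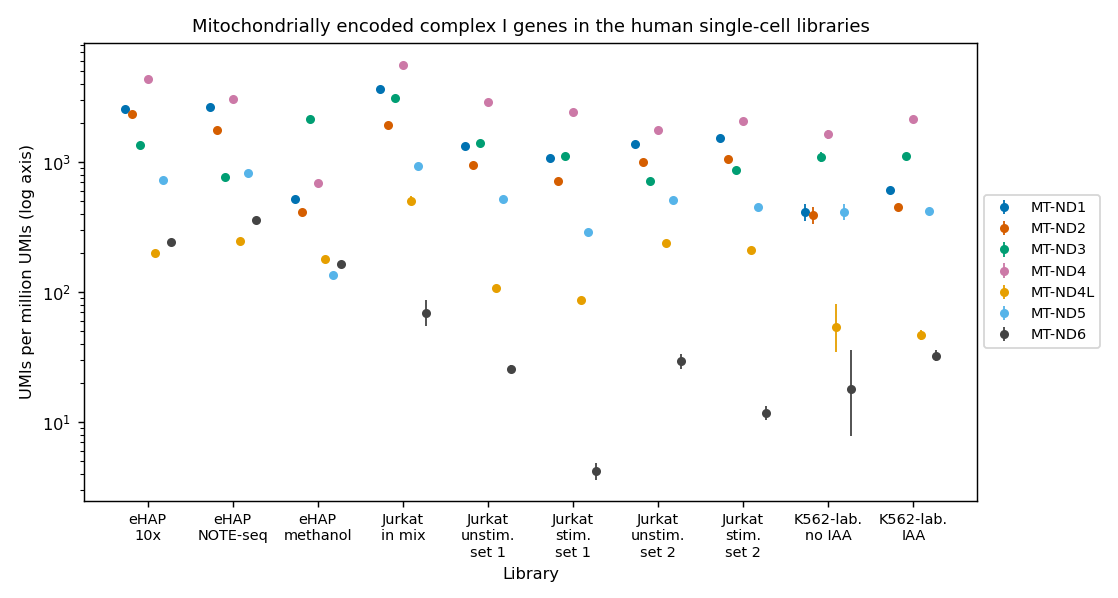
Level of each of the 7 genes (CPM, log axis) in the 10 human single-cell libraries or cell sets; points are single libraries and bars are exact 95% Poisson intervals, which cover counting error only and are mostly hidden by the points. MT-ND6 lies between 164 and 358 in the 3 eHAP libraries and at most at 69.3 in the others, and MT-ND3 is at 2143 after methanol against 1363 in standard 10x eHAP cells.

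Of the antiporter-like subunits, MT-ND4 was at 4370 CPM in standard 10x eHAP cells, 3060 in NOTE-seq and 693 after methanol, at 2925 and 1759 in unstimulated and 2443 and 2080 in stimulated Jurkat cells (set 1, then set 2), at 1632 and 2129 in the libraries labelled K562, and at 5598 in the Jurkat cells of the mix. MT-ND2 was at 2342, 1773 and 410 in the 3 eHAP libraries and at 720 to 1056 in the 4 Jurkat libraries. MT-ND5, the longest of the genes, stayed between 290 and 926 in 9 of these 10 libraries and was at 136 after methanol. Of the others, MT-ND1 was at 2566, 2640 and 521 in eHAP and at 1083 to 1525 in Jurkat cells. MT-ND3 was at 1363, 764 and 2143 in eHAP and at 718 to 1405 in Jurkat cells. From standard 10x to methanol-fixed eHAP cells MT-ND1, MT-ND2, MT-ND4 and MT-ND5 were lower and MT-ND3 was higher.

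MT-ND6 was higher in the 3 eHAP libraries than in the other human libraries. MT-ND4L was at 200, 248 and 181 in eHAP and at 86.7 to 239 in Jurkat cells. MT-ND6 was at 243 CPM (95% Poisson interval 239 to 247), 358 and 164 in the 3 eHAP libraries, while it was at 25.7 and 29.3 in unstimulated Jurkat cells, at 4.17 and 11.8 in stimulated ones, at 18.1 and 32.5 in the libraries labelled K562 and at 69.3 in the Jurkat cells of the mix. The eHAP libraries lay above all the others without overlap, but 1 line stands for each cell type and protocol, so no test was made. How many of all genes did likewise was not counted. MT-ND6 held 2.06% to 3.87% of the members' UMIs in eHAP and 0.0727% to 0.522% in the 4 Jurkat libraries.

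The order of levels between genes was read only per kilobase of gene, on the scale of CPM per kilobase, although 3' end counts need not grow with gene length. In standard 10x eHAP cells the order was MT-ND3 (3940), MT-ND4 (3171), MT-ND1 (2684), MT-ND2 (2248), MT-ND4L (672), MT-ND6 (463) and MT-ND5 (399). In set 1 unstimulated Jurkat cells MT-ND3 (4061) again came before MT-ND4 (2123), MT-ND1 (1401), MT-ND2 (918), MT-ND4L (360) and MT-ND5 (288), with MT-ND6 (48.9) last. Set 2 put MT-ND3 at 2076 per kilobase, MT-ND1 at 1436 and MT-ND4 at 1277. MT-ND1 and MT-ND4 therefore changed places between the sets and cannot be ordered beyond the spread over these 2 libraries, while MT-ND3 came first and MT-ND6 last in both.

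Over the 9 human single-cell libraries other than the mix, the members did not move as one block. The log2 level of each gene was set beside the mean of the other 6, as a description in which libraries of 1 line share their source. Pearson correlations were 0.87 for MT-ND2, 0.81 for MT-ND1, 0.59 for MT-ND4L, 0.56 for MT-ND5, 0.47 for MT-ND4, 0.44 for MT-ND6 and -0.27 for MT-ND3. Of 10481 nuclear genes, FBXL12 (an F-box protein, 0.94), GOT1 (cytosolic aspartate aminotransferase, 0.94) and EIF2AK4 (a kinase that senses uncharged tRNA, 0.93) followed the members' mean most closely over the same 9 libraries.

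The eHAP libraries compare formaldehyde-based NOTE-seq and the methanol protocol with standard 10x. With 1 library each there is no replicate check and no test, and folds are given with exact 95% intervals for counting error. After methanol the members' summed level was 4249 against 11808 CPM, 0.360-fold (0.358 to 0.361), and the 6 mitochondrial messenger RNAs of complexes III to V summed to 0.387-fold. Among the 14142 genes that reached 100 UMIs over both libraries, the median was 0.361-fold, a shift of -1.47 on the log2 scale, so the members' sum moved like the median gene (0.998 of it). The nuclear core subunits instead summed to 1.54-fold and the supernumerary subunits to 2.53-fold (15253 against 6029). Of 30 supernumerary genes 23 were higher by over 1.5-fold, where 6.61% of all genes were, and 0 were lower, where 72.7% were.

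Within that sum the members parted. MT-ND4, an antiporter-like subunit, was at 0.159-fold (0.157 to 0.160) after methanol, MT-ND2 at 0.175-fold, MT-ND5 at 0.188-fold and MT-ND1 at 0.203-fold. MT-ND3 alone was above its 10x level, at 1.57-fold (1.56 to 1.59). MT-ND4L at 0.906-fold and MT-ND6 at 0.677-fold were below it, but relative to the median gene they were at 2.51 and 1.88, so their direction depends on that reference. By a limit of 1.5-fold, 1 of 7 members was higher, where 6.61% of all genes were, and 4 of 7 were lower, where 72.7% of all genes were. MT-ND3 held 11.5% of the members' UMIs in 10x and 50.4% after methanol, and the ratio of MT-ND3 to MT-ND4 UMIs was 0.312 in 10x, 0.250 in NOTE-seq and 3.09 after methanol. The ratio of MT-ND6 to MT-ND5 UMIs was 0.336, 0.432 and 1.21 in the same libraries.

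In NOTE-seq eHAP cells the members' sum lay closer to 10x than the sum of complexes III to V did. The members' sum was 9672 CPM, 0.819-fold of 10x, whereas the messenger RNAs of complexes III to V summed to 0.346-fold. By 1.5-fold, 5 of those 6 were lower, where 16.4% of 14711 genes were. The other, MT-ATP8 at 3.83-fold, was higher, where 4410 of the 14711 were. The ratio of the members' sum to the complex III to V sum was 0.339 in 10x and 0.802 in NOTE-seq. MT-ND1 was at 1.03-fold, MT-ND5 at 1.15-fold, MT-ND4L at 1.24-fold and MT-ND6 at 1.48-fold (1.44 to 1.51), while MT-ND2 was at 0.757-fold, MT-ND4 at 0.700-fold and MT-ND3 at 0.561-fold (0.553 to 0.569). By 1.5-fold only MT-ND3, 1 of 7, was lower, where 16.4% of 14711 genes were. The median gene was at 1.09-fold, and against it MT-ND1 was at 0.945. Nuclear core and supernumerary subunits were at 0.980-fold and 0.907-fold.

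**Figure D2:**
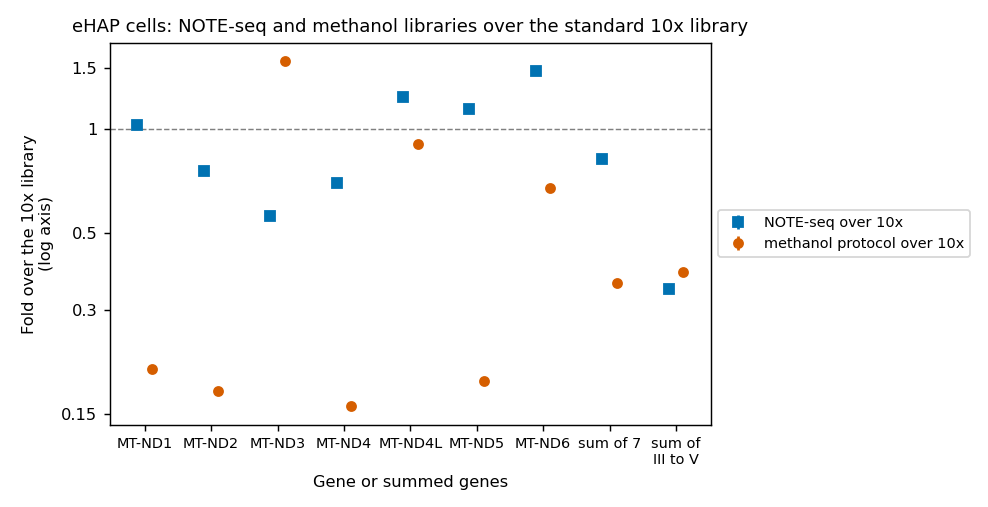
Fold of each member, of the sum of the 7 and of the summed genes of complexes III to V (log axis) in NOTE-seq (squares) and methanol-fixed (circles) eHAP cells over the standard 10x library, 1 library each; 95% counting intervals are smaller than the symbols. MT-ND3 is the highest circle, at 1.57, and the lowest member square, at 0.561.

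In the standard 10x library 189 of 2807 cells (6.73%) had at least 20% of their UMIs from mitochondrial genes. Members took 8.34% of the UMIs of those cells, whose median depth was 1854 UMIs, against 1.12% in the remaining cells. Without such cells the methanol fold was 0.380 for the sum, 1.66 for MT-ND3 and 0.167 for MT-ND4, and the NOTE-seq fold of the sum was 0.865. The NOTE-seq fold of MT-ND6 was 1.60 without them, past the limit of 1.5-fold that it missed with them. The methanol and NOTE-seq libraries held 0 such cells.

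Stimulation of Jurkat cells with PMA and ionomycin, which mimic T cell receptor signalling, was compared with unstimulated cells. The 2 unstimulated libraries differed between themselves, with MT-ND3 at 1.96-fold, MT-ND4 at 1.66-fold and MT-ND4L at 0.448-fold in set 1 over set 2, while MT-ND1, MT-ND2 and MT-ND5 were within 0.964-fold and 1.02-fold. MT-ND6 was lower in the stimulated library of both sets, from 25.7 (24.1 to 27.3) to 4.17 (3.60 to 4.82) CPM in set 1 and from 29.3 (25.5 to 33.6) to 11.8 (10.4 to 13.3) in set 2. These are 0.163-fold (0.138 to 0.190) and 0.402-fold (0.333 to 0.485), and the values of stimulated and unstimulated libraries did not overlap. The share of all genes without such overlap was not counted. MT-ND6 had the lowest fold of the 14949 genes counted in set 1 (100 UMIs or more over both libraries) and ranked 11 from the lowest of 11717 in set 2. The counts behind it were 962 and 187 UMIs in set 1 and 212 and 249 in set 2. Relative to MT-ND5, which lies on the opposite strand beside it, MT-ND6 went from 0.0491 to 0.0144 in set 1 and from 0.0575 to 0.0263 in set 2.

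MT-ND5 was at 522 CPM in unstimulated and 290 in stimulated cells of set 1, 0.556-fold (0.544 to 0.568), and at 511 and 448 in set 2, 0.877-fold (0.845 to 0.912). MT-ND4L was at 0.810-fold and 0.877-fold. The other 4 members were lower in set 1 and higher in set 2, MT-ND1 at 0.809-fold and 1.11-fold, MT-ND2 at 0.753-fold and 1.06-fold, MT-ND3 at 0.794-fold and 1.20-fold and MT-ND4 at 0.835-fold and 1.18-fold. The sum of all 7 was at 0.789-fold and 1.10-fold, beside 0.776 and 1.05 for the complex III to V genes. The median gene was at 0.968-fold and 0.967-fold. By 1.5-fold, 2 of 7 members (MT-ND5 and MT-ND6) were lower in set 1, where 4.82% of all genes were, and 1 of 7 (MT-ND6) in set 2, where 5.38% of all genes were.

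The share of cells with at least 1 MT-ND6 UMI was 35.4% without and 7.36% with stimulation in set 1, at median depths of 17481 and 17284.5 UMIs, and 32.9% and 11.5% in set 2, at 14975 and 8876. Thinned to 5000 UMIs per cell, leaving out 82 and 114 shallower cells in set 1 and 114 and 207 in set 2, the shares were 11.9% (95% exact binomial interval 10.5% to 13.5%) and 2.25% (1.67% to 2.96%) in set 1, and 14.4% (10.5% to 19.1%) and 5.04% (4.06% to 6.18%) in set 2. No cell type here lacks the gene, so stray RNA could be read only from the mix, as given above. MT-ND4L, thinned the same way, was in 38.7% and 33.2% of cells in set 1 and in 70.9% and 64.0% in set 2. The intervals of stimulated and unstimulated cells did not overlap for MT-ND6 in either set, and those for MT-ND4L overlapped in set 2. These intervals count the cells of 1 library each and leave out differences between libraries, so they do not test stimulation.

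**Figure D3:**
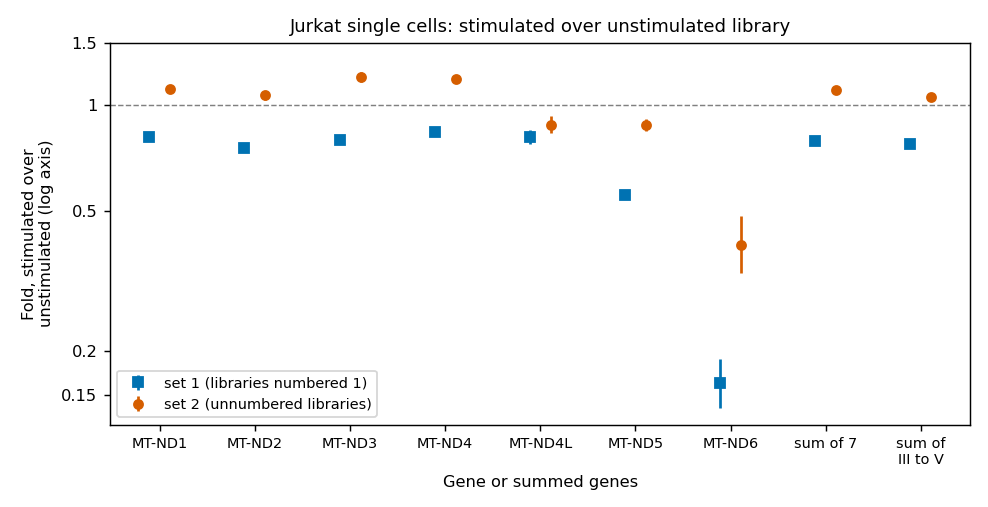
Stimulated over unstimulated fold (log axis) of each member, of the sum of the 7 and of the summed genes of complexes III to V in Jurkat single cells, for set 1 (squares) and set 2 (circles); bars are 95% counting intervals of 1 library against 1. MT-ND6 lies lowest in both sets, at 0.163 and 0.402, while MT-ND1 to MT-ND4 lie under 1 in set 1 and over 1 in set 2.

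Fitted over all 4 libraries, taken as unpaired, with edgeR's quasi-likelihood test, 0 of 7 members passed an adjusted p of 0.05, and 0.00% of 19099 genes did. Same-set libraries deviated together (correlation 0.865), so the unpaired spread takes in the difference between sets, and 0 calls do not show equal levels. With the set as a block, given at the end, 2 members were called lower, among 1071 genes higher and 987 lower. At an unadjusted p under 0.05 there were 218 genes, 0 of them members, and DESeq2 called 49 genes in all. MT-ND6 had a log2 fold change of -1.68 ± 0.75 (SE, Benjamini-Hochberg adjusted p = 1.00, edgeR), and the other members lay between -0.42 and 0.0037. The 7 nuclear core subunits, 30 supernumerary subunits, 19 assembly factors and 30 genes of mitochondrial DNA expression had 0 calls, with medians of 0.02, 0.00, 0.01 and 0.11 on the log2 scale beside 0.00 over all genes. T cell markers, all 8 detected, summed to 2223 and 2131 CPM in set 1 and to 2901 and 3193 in set 2, without and with stimulation, and their part in these values was not tested.

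In the libraries labelled K562, the one with IAA was set against the one without, which held 49 cells. The members' sum was at 1.20-fold (1.14 to 1.26), beside 1.27-fold for complexes III to V and a median gene at 0.961-fold. MT-ND1 was at 1.48-fold (1.28 to 1.72) and MT-ND4 at 1.30-fold (1.21 to 1.41). MT-ND2 at 1.16-fold (0.997 to 1.36), MT-ND3 at 1.02-fold (0.935 to 1.12), MT-ND4L at 0.861-fold (0.572 to 1.36), MT-ND5 at 1.01-fold (0.870 to 1.18) and MT-ND6 at 1.80-fold (0.902 to 4.19) had intervals that include 1, so a difference was not detectable at this depth. The members' ratio to complex III to V genes, 1.10 and 1.04, was above that of any other library here.

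Naive T cells at 0 h with 4sU were set against the library without 4sU, with 1 library each. The members' sum was 2273 CPM at 0 h with 4sU and 4735 without, 0.480-fold (0.455 to 0.507), beside 0.529-fold for complexes III to V. mt-Nd1 went from 1448 to 812 (0.561-fold), mt-Nd2 from 1404 to 485 (0.346-fold), mt-Nd3 from 467 to 291 (0.623-fold) and mt-Nd4 from 1105 to 547 (0.495-fold). mt-Nd4l was at 0.436-fold and mt-Nd5 at 0.417-fold. All 6 members that reached 100 UMIs over both libraries were lower by over 1.5-fold, where 16.8% of 2510 genes were. The nuclear supernumerary subunits were at 1.06-fold (1.01 to 1.12) and the median gene at 0.882-fold. T cell markers summed to 4819 without and 3723 with 4sU, and naive T markers to 3660 and 2638; their part in the result was not tested.

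From 0 to 8 h of stimulation the members' sum stayed within a narrow range while the nuclear subunits were at higher levels later. The sum was 2273, 2300, 1976, 1856 and 1931 CPM at 0, 2, 4, 6 and 8 h, and 8 h was at 0.850-fold of 0 h (0.790 to 0.913). The 29 nuclear supernumerary subunits measured summed to 3193, 3358, 4551, 6140 and 6671, 2.09-fold (1.99 to 2.20) at 8 h. Of the 27 counted, 17 were higher by over 1.5-fold, where 47.0% of all genes were, and 1 was lower, where 29.5% were. The 7 nuclear core subunits went from 345 to 709, 2.06-fold (1.77 to 2.40), and the assembly factors were at 2.53-fold (2.11 to 3.06). The median of 1547 genes was at 1.37-fold, a shift of 0.45 on the log2 scale, so members near 1 lay below it. Relative to that median the members' sum was at 0.622, the supernumerary sum at 1.53 and the nuclear core sum at 1.51.

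The members did not move alike over these hours. mt-Nd1 was at 812, 880, 863, 771 and 837 CPM, 1.03-fold at 8 h. mt-Nd2 was at 485, 474, 312, 279 and 280, 0.577-fold (0.482 to 0.688), and mt-Nd4 at 547, 515, 412, 402 and 363, 0.664-fold (0.565 to 0.778). mt-Nd3 was at 291, 285, 273, 274 and 300, 1.03-fold at 8 h, so mt-Nd2 and mt-Nd4 were lower from 4 h on while mt-Nd1 and mt-Nd3 were near their start. The ratio of mt-Nd2 to mt-Nd1 UMIs was 0.598 at 0 h, 0.361 at 4 h and 0.334 at 8 h, and 0.969 without 4sU. By 1.5-fold, 2 of the 5 members with enough UMIs (mt-Nd2 and mt-Nd4) were lower at 8 h, where 29.5% of all genes were, and 0 were higher, where 47.0% of all genes were.

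mt-Nd4l was at 47.9 at 0 h and 76.0 at 8 h, 1.59-fold (1.02 to 2.50) with under 100 UMIs in the pair, and mt-Nd5 was at 0.860-fold. mt-Nd6 gave 0 to 5 UMIs in each of the 6 naive T libraries, at or near the limit that a count of 0 allows (2.21 to 4.22 CPM), so no change could be read. In NIH3T3 cells of the mix mt-Nd6 was at 7.47 CPM (3.42 to 14.2), from 9 UMIs. No UMI of any member was found in 28.9% to 48.5% of naive T cells. Naive T markers such as Lef1, which encodes a TCF family factor, summed to 2638 at 0 h and to 528, 219, 160 and 198 later, beside the values above.

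**Figure D4:**
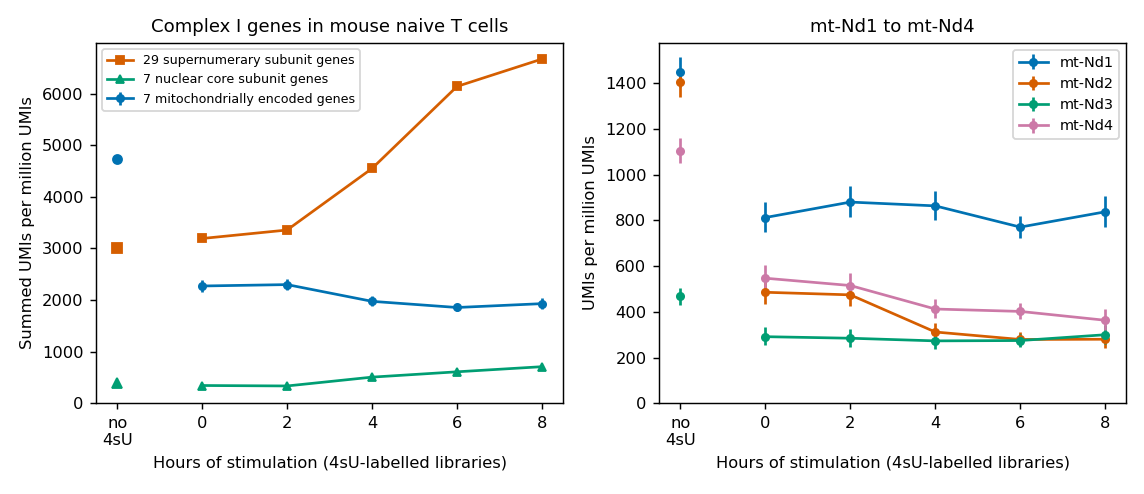
Left, summed CPM of the 7 members, of 29 supernumerary and of 7 nuclear core subunit genes in mouse naive T cells without 4sU (detached points) and at 0 to 8 h of stimulation with 4sU; right, mt-Nd1 to mt-Nd4, 1 library per point with 95% counting intervals where drawn. The supernumerary sum goes from 3193 to 6671 while the members go from 2273 to 1931.

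In the Jurkat SLAM-seq tables, which list annotated 3' ends, 0 of 16 mitochondrial lines overlap a member. The lines are 2 ribosomal RNAs and 14 tRNAs, so no level or conversion rate of a member could be read in Jurkat cells. The mouse lines of the naive T tables were not placed against the members, as mouse gene positions were not among the sources used here. In human 4 lines begin at the base after a member: TRNI (MT:4263-4331) after MT-ND1, TRNW (MT:5512-5579) after MT-ND2, TRNR (MT:10405-10469) after MT-ND3 and TRNH (MT:12138-12206) after MT-ND4. Their reads can be of the tRNA, of an uncut precursor or of reads that reach over the end of the ND gene, and these cannot be told apart. Of the reads on TRNI 79.1% to 84.2% were multimapped, and on TRNW each read covered 0.286 to 0.665 T of the 19 in the line. The values below are of these lines and are given as the nearest available, not as levels of the members.

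Total reads on the lines were higher with CPT and ETO than in control Jurkat cells. TRNW had 109 to 111 reads per 1000000 reads (RPM) in the 3 controls, 389 to 529 with CPT and 293 to 370 with ETO. TRNI had 49.9 to 60.1, 165 to 196 and 133 to 154, and TRNH had 24.1 to 32.6, 59.0 to 71.5 and 49.9 to 54.5. TRNR had 1.58 to 2.62, 4.10 to 4.57 and 2.15 to 2.95. Libraries of the treated groups did not overlap the controls on 3 of the lines, and on TRNR this held for CPT only. How many of all features were likewise without overlap was not counted.

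By edgeR's quasi-likelihood test over 17514 features, 4 of 4 lines rose with CPT against control, where 22.7% of features rose and 25.0% fell. TRNW had the largest log2 fold change, 1.99 ± 0.09 (SE, adjusted p = 1.3e-13, edgeR), followed by TRNI at 1.68 ± 0.08, TRNH at 1.11 ± 0.10 and TRNR at 0.90 ± 0.26 (adjusted p = 0.00625, edgeR). With ETO 3 of 4 rose, where 16.9% of features rose and 17.3% fell, TRNW by 1.53 ± 0.09, TRNI by 1.35 ± 0.08 and TRNH by 0.81 ± 0.10, while TRNR was at 0.24 ± 0.26 (adjusted p = 0.511, edgeR). CPT against ETO, in which 13.5% of features were higher and 16.4% lower, gave 3 of 4 higher: TRNW at 0.46 ± 0.09, TRNI at 0.33 ± 0.08 and TRNH at 0.29 ± 0.10 (adjusted p = 0.0304, edgeR), with TRNR at 0.65 ± 0.25 (adjusted p = 0.0573, edgeR). The first 2 comparisons share their control libraries. In bulk samples, fewer cells of a kind and less RNA per cell cannot be told apart.

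The lines moved with all mitochondrial reads, which took 1.05% to 1.24% of reads in controls, 5.31% to 6.68% with CPT and 2.88% to 3.03% with ETO. The ribosomal RNA lines RNR1 and RNR2 rose by 2.35 and 2.42 on the log2 scale with CPT and by 1.33 and 1.39 with ETO, above the tRNA lines with CPT. The libraries differed in depth, with 32917922 to 38991246 reads in controls, 19049329 to 23892944 with CPT and 24760590 to 40839684 with ETO.

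**Figure D5:**
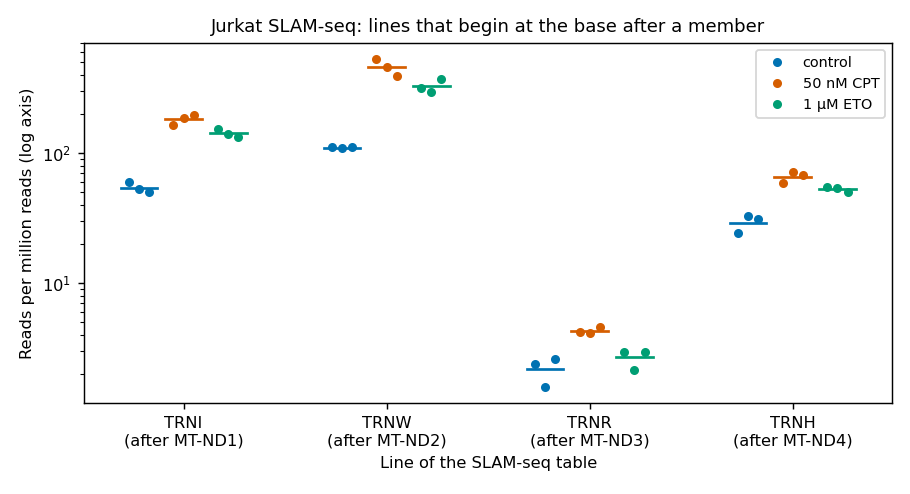
RPM (log axis) on the 4 SLAM-seq lines that begin at the base after MT-ND1, MT-ND2, MT-ND3 or MT-ND4, in 3 control, 3 CPT and 3 ETO Jurkat libraries; points are libraries and bars group means. TRNW goes from 109 to 111 in controls to 389 to 529 with CPT, and on TRNR the ETO points overlap the controls.

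Reads with a T-to-C conversion were scaled to the converted reads of each library. With CPT 4 of 4 lines rose, where 3.54% of 9310 features did, with log2 fold changes of 2.53 ± 0.21 for TRNW, 2.67 ± 0.24 for TRNI, 1.78 ± 0.44 for TRNH and 4.51 ± 1.08 for TRNR, whose controls held 1 converted read each. Leaving out any 1 control library left 2 of these calls, TRNI and TRNW, and leaving out CPT replicate 1 ended that of TRNR. With ETO 3 of 4 rose, where 1.34% did, TRNW by 2.05 ± 0.20, TRNI by 1.90 ± 0.23 and TRNH by 1.76 ± 0.42, with TRNR at 3.56 ± 1.06 (adjusted p = 0.0923, edgeR). CPT against ETO called 0 of 4, where 0.924% of features were higher; at an unadjusted p under 0.05 there were 2 lines, and DESeq2 called 1.

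The conversion rate over the 4 lines was 0.350% ± 0.038 of T positions covered in controls, 0.775% ± 0.081 with CPT and 0.908% ± 0.486 with ETO (SD, n = 3 each, exact permutation p of 0.1 for each treatment against control, two-sided). With 3 libraries against 3 the smallest p is 0.1, and adjusted over the 3 comparisons the p was 0.15. The ETO libraries had 0.378%, 1.01% and 1.33%, so the first lay next to the controls. CPT against ETO gave an exact permutation p of 0.7. Non-mitochondrial lines had rates of 0.187%, 0.121% and 0.219% in the same groups. As a share of reads with a conversion the lines had 1.90% in controls, 1.85% with CPT and 2.95% with ETO, so CPT and control libraries were close on that measure. Converted reads outnumbered the conversions counted on the lines in every library, with 315 against 94 in ETO replicate 1. The rate and the share of reads therefore do not cover the same positions.

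Nuclear genes of complex I were followed in the same tables of total reads. Of the 7 core subunit genes, 4 rose and 1 fell with CPT, where 22.7% of all features rose and 25.0% fell: NDUFS3 rose by 0.57 ± 0.05, NDUFS7 by 0.54 ± 0.10 and NDUFV1, which binds NADH, by 0.50 ± 0.08, while NDUFS8 fell by 0.27 ± 0.08 on the log2 scale. With ETO 3 rose and 1 fell, where 16.9% of features rose and 17.3% fell, with NDUFS3 rising by 0.49 ± 0.05 and NDUFV1 by 0.41 ± 0.08, and NDUFS8 falling by 0.46 ± 0.08. Supernumerary subunits were read on 30 features of 26 genes, of which 4 rose and 19 fell with CPT (median log2 fold change -0.20) and 3 rose and 14 fell with ETO (median -0.12), beside the same shares and medians over all features of -0.01 and 0.00. NDUFA3 fell by 0.99 ± 0.11 with CPT and by 1.33 ± 0.11 with ETO, and NDUFA1, which is needed for assembly of the membrane arm, fell by 0.54 ± 0.06 and 0.50 ± 0.06. NDUFAB1, the mitochondrial acyl carrier protein, had features at -0.67 ± 0.06 and -0.94 ± 0.10 with CPT.

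Of 16 assembly factors, 7 fell and 1 rose with CPT (median -0.18), and 2 fell and 4 rose with ETO (median 0.05); the ETO counts are near the shares over all features. NDUFAF2, an assembly chaperone, fell by 1.19 ± 0.10 with CPT and NDUFAF3 by 0.59 ± 0.06. NDUFAF8 rose by 0.57 ± 0.07 and ACAD9 by 0.47 ± 0.08 with ETO. Tested directly, 10 of 16 were lower with CPT than with ETO and 0 higher, where 16.4% of all features were lower and 13.5% higher. Genes of mitochondrial DNA replication and expression fell in 18 of 27 with CPT (median -0.42, 3 rising) and in 6 with ETO (median 0.02, 7 rising), and 15 of 27 were lower and 0 higher with CPT than with ETO, beside the same shares. POLG, the mitochondrial DNA polymerase, fell by 1.01 ± 0.08 and 0.94 ± 0.07, and TFAM, which packages mitochondrial DNA, fell by 0.33 ± 0.07 with ETO. SSBP1, its single-strand binding protein, fell by 0.57 ± 0.05 with CPT. Of converted reads, these lists had 1 call, POLG2, which rose by 2.02 ± 0.58 with CPT. It was 1 of 27 genes tested in its list, near the 3.54% of 9310 features that rose, so it is no result about the list.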

How the data were processed

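The deposited single-cell matrices are UMI counts from cellranger 7.1.0 (human libraries) or 7.2.0 (the mix and naive T cells), per the file headers. The deposited SLAM-seq tables hold read counts, converted read counts, conversions and T coverage per 3' end line, made with slamdunk 0.4.3, per the file headers. Builds were GRCh38 and mm10, per the submitters' processing notes; mapping settings: not given in the sources used here. Conversion rate (fraction) and CPM columns deposited with them were recomputed from the counts.

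UMIs were summed over all cells of a library, with no further filter and no doublet removal. Pairs of single libraries were described by ratios of CPM with exact 95% intervals, with genes at 100 UMIs or more in the pair ranked and counted by 1.5-fold. In the mix, cells with at least 90% of UMIs from 1 species were assigned to it. Thinning drew 5000 UMIs per cell. The limit that a count of 0 allows was 3 counts per library. Intervals cover counting error only.

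Counts were fitted with edgeR 4.0.16 (R 4.3.3, quasi-likelihood, filterByExpr, TMM, all groups of an assay in 1 fit, Benjamini-Hochberg adjustment over all features, threshold 0.05), and with DESeq2 1.42.0 as an alternative; the fit was tested on simulated data. The Jurkat SLAM-seq tests planned for the members were run on the 4 neighbouring lines, since the human members have no line. Those planned for naive T SLAM-seq were not run. SEs were taken from the test statistic. Nuclear genes in SLAM-seq were named by their RefSeq (GRCh38.p14) position, with the line of most reads standing for overlapping lines. Named are the members, up to 4 genes of each list with the smallest p among those passing, and the 3 genes most like the members (log2 of CPM plus 1, mean of at least 10 CPM), taken over 9 single-cell libraries in place of SLAM-seq. Single values of some list genes are not reported here. Members and lists were chosen with earlier results of these data known. Alternatives were DESeq2, filters, library sizes, cell filters, replicates left out and a replicate block.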

Additional observations from a re-analysis of the deposited data

Results flagged for a closer look

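MT-ND1, MT-ND2, MT-ND3, MT-ND4 and the sum of the 7 members were lower with stimulation in the Jurkat libraries of set 1 and higher in those of set 2, which is what singled them out. The fold of set 2 divided by that of set 1 was 1.37 for MT-ND1, 1.41 for MT-ND2, 1.51 for MT-ND3, 1.42 for MT-ND4 and 1.40 for the sum. With 1 library per set and state, this difference was not tested.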

How the results depend on the processing

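Of the comparisons' main values, 103 of 118 recomputed values stayed close to the main one, and the others are given here; of single genes and lines, 321 of 366 stayed. Of the 4 neighbouring lines, 2 rose in converted reads with CPT without any 1 control library (range 2 to 4 over libraries left out), and for CPT against ETO 1 line passed with DESeq2, with no filter, and without CPT replicate 2 (range 0 to 1). In that comparison TRNH was at -0.019 with no filter and between -0.13 and 0.13 over libraries left out, and with library sizes from all reads TRNI was at -0.091, TRNW at -0.38 and TRNH at -0.84, where the median feature moved to -0.92. The log2 ratio of conversion rates, 1.15 for CPT and 1.38 for ETO against control, was -0.042 and 0.64 as a share of reads, and 1.77 for CPT over the non-mitochondrial rate. CPT against ETO, -0.23, was 0.63 on that scale and between -0.60 and 0.16 over libraries left out, above 0 only without ETO replicate 3.

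For Jurkat single cells, taking the set as a replicate block (same-set libraries deviated together, correlation 0.865; the labels name no shared batch) called 2 members in place of 0, MT-ND6 at -1.98 ± 0.16 (adjusted p = 9.2e-32, edgeR) and MT-ND5 at -0.50 ± 0.14 (adjusted p = 0.0066, edgeR), with 1071 genes higher and 987 lower. With only 4 libraries split by state and set, the block fit leaves very little replicate spread per gene. Its SEs and p-values therefore rest mostly on spread shared across genes. They do not measure how far the MT-ND6 folds of set 1 (0.163) and set 2 (0.402) differ. The SLAM-seq numbers showed no pairing (correlations of same-numbered libraries between -0.0341 and 0.00314 in total reads), and the replicate block changed no count there. Single-cell members near 0 changed sign: MT-ND4 was at -0.036 with DESeq2 and MT-ND1 at 0.0034 with no filter. Over the 4 libraries left out in turn, MT-ND1 ranged from -0.49 to 0.37, MT-ND2 from -0.61 to 0.32, MT-ND3 from -0.31 to 0.30, MT-ND4 from -0.16 to 0.21, MT-ND4L from -1.23 to 0.77 and MT-ND5 from -0.997 to 0.0041; MT-ND6 stayed below 0, between -2.90 and -1.02. In these fits the lone library is assumed to vary like the others. The cause was not tested. Leaving out cells with 20% or more mitochondrial UMIs, chosen after seeing the data, gave methanol folds of 0.380 for the sum, 1.66 for MT-ND3 and 0.167 for MT-ND4, and a NOTE-seq fold of 0.865. Alternatives for naive T SLAM-seq were not run. Depth limits mt-Nd6 in naive T cells and the K562-labelled library of 49 cells.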
